A study of Mus musculus with 5 samples.

Results

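The genes of the ionotropic and metabotropic receptors for glutamate and GABA were followed through every cell class of single-nucleus RNA sequencing (snRNA-seq) libraries from the mouse brain. Members were chosen by symbol alone, as all genes named as AMPA (Gria), kainate (Grik), NMDA (Grin), delta (Grid), metabotropic glutamate (Grm), GABA-A (Gabr) or GABA-B (Gabbr) receptor subunits, which gave 47 of the 32285 genes in the files. They comprised 4 AMPA, 5 kainate, 7 NMDA, 2 delta, 8 metabotropic glutamate, 19 GABA-A and 2 GABA-B genes. Another 48 genes of transmitter transport, synthesis, degradation and receptor anchoring were counted beside them.

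The 5 libraries each came from 1 mouse. In 2 of them (R241E), 1 copy of Cgas, the gene of a DNA sensor upstream of type I interferon, carried the R241E change, which frees the enzyme from inhibition by nucleosomes. The other 3 (WT) had 2 wild-type copies. All 5 mice carried the Tmem119-creERT2 driver, which the study describes as acting mostly in microglia and brain macrophages, so the receptor genes of astrocytes, oligodendrocytes and neurons were read in cells that the driver was not made to target. The allele is switched on by tamoxifen. For the controls the titles and the methods name wild-type Cgas, whereas the running text of the study names the heterozygous allele; the titles were followed. A treatment with H151 or DMSO is described for all samples, but no label assigns either one to a sample, and no label gives an age. Hippocampus is the labelled tissue, while the extraction is described for mouse brain, and nuclei positive for NeuN (neurons) or Olig2 (oligodendrocyte lineage) were sorted away to enrich microglia.

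Glutamate opens AMPA, kainate and NMDA channels, which carry fast excitation, and acts more slowly through metabotropic receptors coupled to G proteins. GABA opens the chloride channels of the GABA-A type and signals through GABA-B receptors, which need both Gabbr1 and Gabbr2. Receptors of both transmitters are known from glia as well as neurons: astrocytes carry GABA-A and AMPA subunits and metabotropic receptors beside the transporters that clear both transmitters, and cells of the oligodendrocyte lineage carry AMPA and kainate subunits.

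Of 9748 nuclei, 9505 passed the limits of the study's methods. The median kept nucleus held 2126 to 3364 unique molecular identifiers (UMIs, each a counted RNA molecule) per library, and 13 barcodes occurred in more than 1 library. Nuclei were clustered without the receptor and pathway genes, so class membership did not use them, and each class is named for its resemblance to marker genes. Microglia (5376 nuclei), neurons (747), oligodendrocytes (651), mural cells (607), astrocytes (571), fibroblasts (510) and border-associated macrophages (434) had at least 20 nuclei in every library and were tested. The labelled cell type, microglia, thus held more nuclei than any other class. In the microglial cluster numbered 1, Csf3r, listed as a marker of monocytes or neutrophils, was among the leading 10 genes and no microglial marker was, so microglial results are also given without it. All 7 listed microglial markers were detected in cluster 1, and clusters 4 and 13 also had none among their leading 10. Cluster 1 held 468 and 163 nuclei of the R241E libraries and 24, 58 and 63 of the WT libraries. Some nuclei came mainly from single libraries: 46 of the 64 nuclei of neuron cluster 8 from R241E replicate 2, 147 of the 190 of neuron cluster 18 from WT replicate 1, and 51 of the 53 nuclei of a pituitary class from R241E replicate 1. Levels are in CPM, the UMIs of a gene scaled to 1000000 UMIs of its class in a library. Long genes can gather more nuclear reads, so levels are compared between classes and libraries and not between genes.

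Levels of the receptor genes differed between the brain's cell classes (heat map of mean levels by class). In a fit of all classes with the library as a block (edgeR, 10763 genes), each class was set against the mean of the 6 others, and a gene was called at a Benjamini-Hochberg adjusted p under 0.05. Of the 47 members, 34 passed the filter on low counts. The filter admits a gene that is high in a single class, so the counts below are descriptions. In neurons 33 members were called higher, where 29.3% of all genes tested were. In astrocytes 23 were called higher, against 28.1% of all genes. In oligodendrocytes the number was 10, against 25.0%, in fibroblasts 4, against 23.0%, and in mural cells 3, against 18.4%. No member was called higher in microglia (34.8% of all genes) or in border-associated macrophages (22.0%), where 23 and 18 members were called lower, against 24.4% and 27.0% of all genes; 24 and 22 members had an unadjusted p under 0.05 in these classes. The median log2 fold change of the 34 members was 5.18 in neurons, 3.02 in astrocytes, -0.48 in oligodendrocytes, -1.94 in microglia and -2.53 in border-associated macrophages, while that of all genes lay between -0.24 and 0.04 in every class. The 13 members that were not tested (Gabra5, Gabra6, Gabrd, Gabre, Gabrp, Gabrq, Gabrr1, Gabrr2, Gabrr3, Grin3b, Grm2, Grm4 and Grm6) are given by level only, and Grm6, known from retinal bipolar cells, had no UMI in any nucleus.

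**Figure D1:**
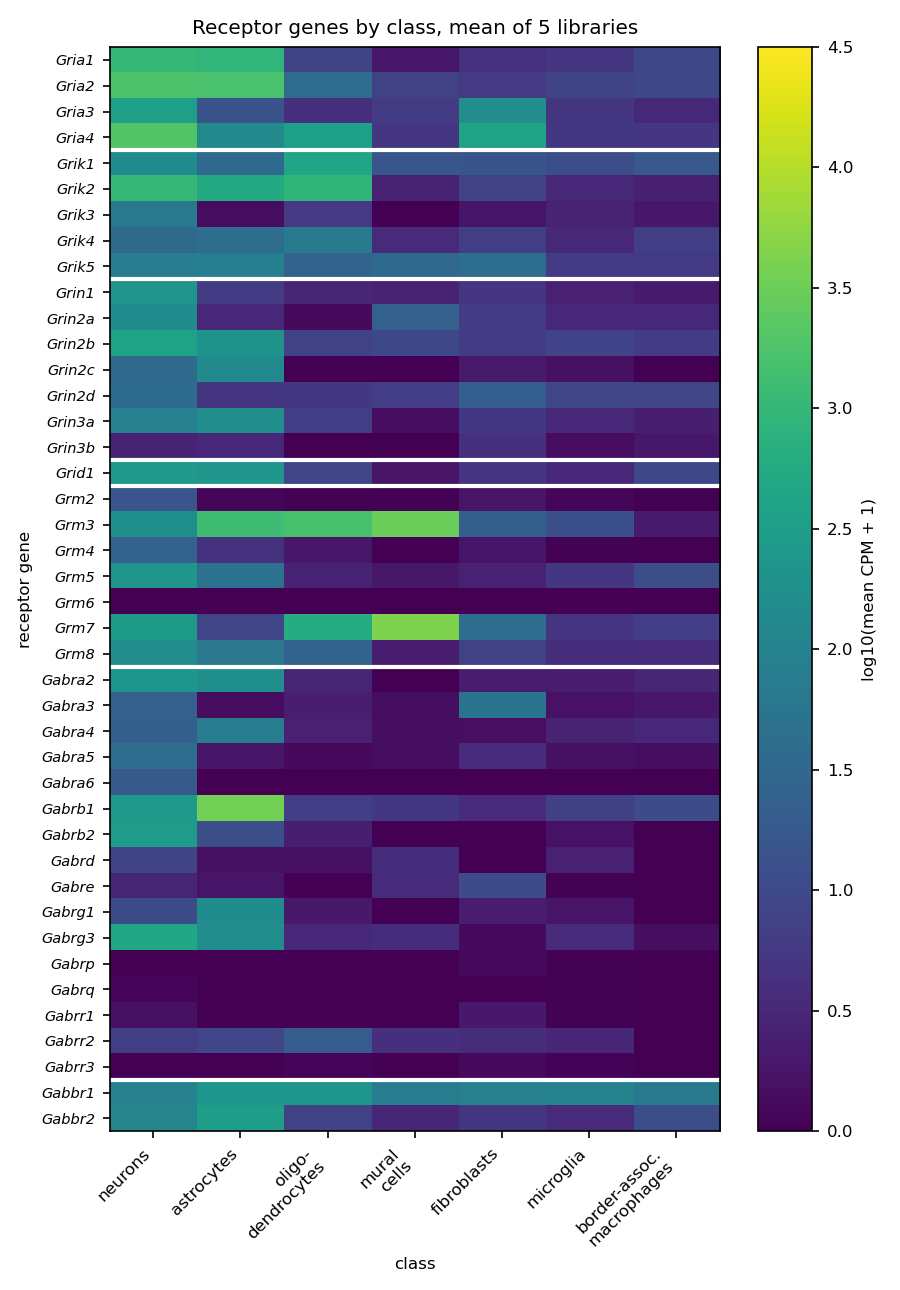
Mean level of 42 of the 47 receptor genes (rows, grouped by family) in the 7 tested classes (columns), as log10 of the mean CPM of 5 libraries plus 1. Neurons and astrocytes were bright over most families, Grm3 and Grm7 were bright in mural cells, and microglia and border-associated macrophages were dark except for Gabbr1.

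Fitted fold changes average the log levels of the 6 other classes, some of which held no UMI, and then depend on the small count the fit adds; the ratio to the next class is therefore given with them. Neuronal RNA free in the suspension can give every class some neuronal UMIs, and its part in these levels was not tested. Snap25, a neuronal vesicle gene, read 418 to 753 CPM in neurons and 11.6 to 55.8 CPM in the libraries of the 6 other classes.

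Among AMPA subunits, Gria2, which makes the channel impermeable to calcium, was about as high in astrocytes as in neurons. It read 1367 and 1466 CPM in R241E astrocytes and 1763, 1975 and 1340 CPM in WT astrocytes, and 1663, 2101, 1782, 1646 and 1600 CPM in neurons of the same libraries. The ranges of the 2 classes overlapped, while the third class, oligodendrocytes, averaged 38.8 CPM. Gria1 read 1473 and 919 CPM in R241E astrocytes and 894, 718 and 560 CPM in WT astrocytes, again within the range of neurons (392 to 2067 CPM). Its level in astrocytes was 6.72 ± 0.23 (SE) log2 units above the mean of the other classes (adjusted p = 1.33e-25).

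Gria4 spread over more classes. Neurons averaged 1903 ± 418 CPM (SD, n = 5), 4.90 times fibroblasts and above them in every library. Fibroblasts read 647 and 285 CPM in R241E and 341, 146 and 522 CPM in WT, which is 2.88 ± 0.31 log2 units above the mean of the other classes (adjusted p = 5.38e-10). Oligodendrocytes, at 340 ± 57.7 CPM (SD, n = 5), lay within the range of fibroblasts. Gria3 was the other AMPA gene of fibroblasts, at 77.3 and 172 CPM in R241E and 117, 272 and 205 CPM in WT (log2 fold change 4.04 ± 0.41, adjusted p = 7.31e-11), and only neurons had a higher mean, 345 CPM, with overlapping ranges.

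The AMPA genes of fibroblasts lay in different clusters. Fibroblast cluster 11 held Gria4 at 933 and 587 CPM in R241E and 805, 415 and 1116 CPM in WT, whereas cluster 0 held it at 0 to 23.0 CPM. Gria3 was arranged the other way, at 141 to 371 CPM in cluster 0 and 24.8 to 83.1 CPM in cluster 11. Both patterns held in all 5 libraries, without overlap between the clusters. The summed neuron marker list read 851 to 1473 CPM in fibroblasts. Snap25, Syt1 (a vesicle calcium sensor) and Nrgn read at most 40.7, 14.4 and 58.0 CPM there, and Rbfox3 was at 0 in 2 libraries. Most of the sum thus came from other members of the list, which are not given here. Fibroblast nuclei with 3 or more neuron marker UMIs numbered 78 of 167 and 80 of 152 in R241E. In WT they numbered 16 of 30, 39 of 67 and 43 of 94. The part of neuronal RNA in the fibroblast levels was not tested. With nuclei holding 3 or more neuron marker UMIs left out, 3 of the 4 fibroblast members were still called, and 2 were with WT libraries only or with nuclei thinned to 1000 UMIs.

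Kainate receptor genes were led by oligodendrocytes and neurons. Grik2, the common kainate subunit, read 784 and 856 CPM in R241E oligodendrocytes and 1137, 726 and 871 CPM in WT (log2 fold change 5.89 ± 0.20, adjusted p = 1.82e-25). Its mean in neurons, 996 CPM, was 1.14 times that in oligodendrocytes, with overlapping ranges, and astrocytes averaged 556 CPM. Grik1 was the kainate gene with oligodendrocytes alone at the top: 403, 529, 278, 466 and 507 CPM, all above neurons (59.5 to 248 CPM), and 2.89 times them on average (log2 fold change 4.43 ± 0.21, adjusted p = 8.99e-21). Grik4, which needs another subunit to form a channel, also had its highest mean in oligodendrocytes (67.4 CPM, against 39.8 CPM in astrocytes), higher in each library but with overlapping ranges. Grik3 stayed with neurons, at 61.6 CPM against 4.62 CPM in oligodendrocytes. Grik5 averaged 87.9 CPM in astrocytes, 78.9 CPM in neurons and 40.7 CPM in fibroblasts, and the ranges of astrocytes and neurons overlapped.

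The NMDA genes split between neurons and astrocytes. Grin1, the obligatory subunit, averaged 225 CPM in neurons and 5.11 CPM in astrocytes, a ratio of 44.0. Grin2a and Grin2b were also highest in neurons in every library, with Grin2b still at 196 CPM in astrocytes against 413 CPM in neurons. Grin2c went the other way: astrocytes read 82.5 and 114 CPM in R241E and 207, 126 and 147 CPM in WT, 3.90 times neurons on average, with no overlap (log2 fold change 7.64 ± 0.26, adjusted p = 1.53e-19). Grin3a, a subunit that lowers calcium flow, was 1.79 times higher in astrocytes (162 CPM) than in neurons (90.3 CPM) on average, with a lowest astrocyte value (124 CPM) just above the highest neuron values (123 CPM). In fibroblasts, Grin2d was called at 33.1, 24.6, 10.7, 24.4 and 11.6 CPM (log2 fold change 1.62 ± 0.35, adjusted p = 2.66e-04), below the mean of neurons (36.4 CPM).

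Grid1, of the delta family, averaged 263 CPM in neurons and 223 CPM in astrocytes, with overlapping ranges.

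The metabotropic glutamate receptor genes Grm3 and Grm7 were highest in mural cells, the pericytes and smooth muscle of vessel walls. Grm7, a low-affinity autoreceptor of nerve endings, read 4267 and 3945 CPM in R241E mural cells and 5802, 3776 and 3284 CPM in WT. Oligodendrocytes came next, at 833, 502, 1161, 249 and 276 CPM, and neurons at 85.5 to 640 CPM, so mural cells stood 6.97 times above the second class in the means and above it in each library (log2 fold change 6.94 ± 0.21, adjusted p = 1.93e-26). Grm3 had closer values, with astrocytes next after oligodendrocytes: 3528, 2688, 3375, 3190 and 2903 CPM in mural cells, then 1349, 1275, 1996, 1726 and 1482 CPM in oligodendrocytes and 988, 1231, 1336, 1264 and 1448 CPM in astrocytes. The mean in mural cells was 2.00 times that in oligodendrocytes, with no overlap (log2 fold change 5.53 ± 0.17, adjusted p = 1.93e-26). Oligodendrocytes and astrocytes overlapped, though the fit called Grm3 in oligodendrocytes too (log2 fold change 4.73 ± 0.18, adjusted p = 3.07e-24). Grin2a was the third mural member called, at 32.8 and 3.72 CPM in R241E and 64.9, 5.97 and 6.24 CPM in WT (adjusted p = 0.00185). It rested on 22 UMIs, and the call was lost without R241E replicate 1 (adjusted p = 0.139).

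Upstream sequence is shown for Grm3 and Grm7 because these were the members with their highest level in mural cells. Each window is the 250 bases before a start listed by RefSeq in GRCm38.p6, 5′ to 3′ on the strand of the gene, with the GC box GGGCGG, a binding motif of Sp-type factors, in capitals. Grm3 lies at chr5:9485236-9725352 and its window at chr5:9725353-9725602 (minus strand). Grm7 lies at chr6:110645349-111567230 and the window shown at chr6:110645262-110645511 (plus strand), which reaches into the annotated gene. Another Grm7 window, chr6:110645348-110645597, overlaps it and is not shown.
Grm3: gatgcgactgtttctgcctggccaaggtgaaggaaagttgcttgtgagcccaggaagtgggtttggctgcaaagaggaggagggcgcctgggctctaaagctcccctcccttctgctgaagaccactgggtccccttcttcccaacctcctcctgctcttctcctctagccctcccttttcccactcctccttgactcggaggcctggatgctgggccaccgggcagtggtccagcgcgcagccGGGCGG
Grm7: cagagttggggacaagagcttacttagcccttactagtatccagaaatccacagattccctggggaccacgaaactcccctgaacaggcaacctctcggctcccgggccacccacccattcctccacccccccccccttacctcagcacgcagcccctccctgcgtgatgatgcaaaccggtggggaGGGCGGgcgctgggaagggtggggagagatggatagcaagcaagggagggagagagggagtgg
Each window held 1 GC box. The RefSeq promoter table matched 32 of the 47 members with 39 windows, of which 18 held a GC box on either strand (46.2%), against 32.7% of all 32851 windows of that length. A match is a description of the letters and no evidence of binding.

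The other metabotropic genes were mostly neuronal. Grm5, a receptor that activates phospholipase C, averaged 219 CPM in neurons and 48.5 CPM in astrocytes, with overlapping ranges. Grm2 and Grm4, at 14.3 and 25.1 CPM, were highest in neurons in every library.

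The GABA-A genes gave neurons and astrocytes different subunits. Gabrb1 was the astrocyte gene of the family: 3319 and 3687 CPM in R241E and 3245, 3782 and 3206 CPM in WT, against 158 to 423 CPM in neurons and at most 9.74 CPM on average in the 5 other classes. Its mean was 12.9 times that of neurons (log2 fold change 8.43 ± 0.18, adjusted p = 2.57e-31). Gabrg1 accompanied it, at 176, 160, 156, 99.3 and 174 CPM, 15.2 times neurons (log2 fold change 7.52 ± 0.26, adjusted p = 2.30e-21). Gabra4 averaged 80.3 CPM in astrocytes and 22.0 CPM in neurons, and Gabra2 169.8 CPM in astrocytes and 234 CPM in neurons. Gabra2 thus overlapped between the classes.

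Beta and gamma subunits of neurons were of another kind. Gabrb2 read 252 and 515 CPM in R241E neurons and 226, 257 and 204 CPM in WT, 26.3 times astrocytes (log2 fold change 8.96 ± 0.34, adjusted p = 1.55e-18). Gabrg3 read 1037, 284, 313, 395 and 382 CPM, 3.05 times astrocytes (log2 fold change 7.17 ± 0.22, adjusted p = 3.87e-27). In both, every neuron value lay above every astrocyte value.

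Of the 34 tested members, Gabra3 alone had its highest mean in fibroblasts, at 35.9 and 67.7 CPM in R241E and 53.3, 32.5 and 77.3 CPM in WT (log2 fold change 4.80 ± 0.35, adjusted p = 1.46e-14). It exceeded neurons within each of the 5 libraries, with overlapping ranges, and lay in the same fibroblast cluster as Gria4, at 52.2 to 149 CPM in cluster 11 and 0 to 19.2 CPM in cluster 0. Gabrr2, a rho subunit, was highest in oligodendrocytes (19.7 CPM, above astrocytes at 7.63 CPM in every library). Gabrp, Gabrq, Gabrr1 and Gabrr3 had 2, 3, 4 and 4 UMIs in all nuclei.

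The 2 GABA-B subunits did not share a pattern. Gabbr2, which carries the signal to the G protein, averaged 331 ± 141 CPM (SD, n = 5) in astrocytes and 112 CPM in neurons, with every astrocyte value above neurons, and at most 11.2 CPM elsewhere. Gabbr1, which binds GABA, was present in every class, at 232 CPM in astrocytes, 232 CPM in oligodendrocytes, 100 CPM in microglia, 90.6 CPM in neurons, 89.5 CPM in fibroblasts, 75.2 CPM in mural cells and 63.7 CPM in border-associated macrophages. Astrocytes and oligodendrocytes lay above the other classes in every library, with overlapping ranges between them, and the ranges of the other 5 classes overlapped. Gabbr1 was the only member tested between genotypes in all 7 classes.

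**Figure D2:**
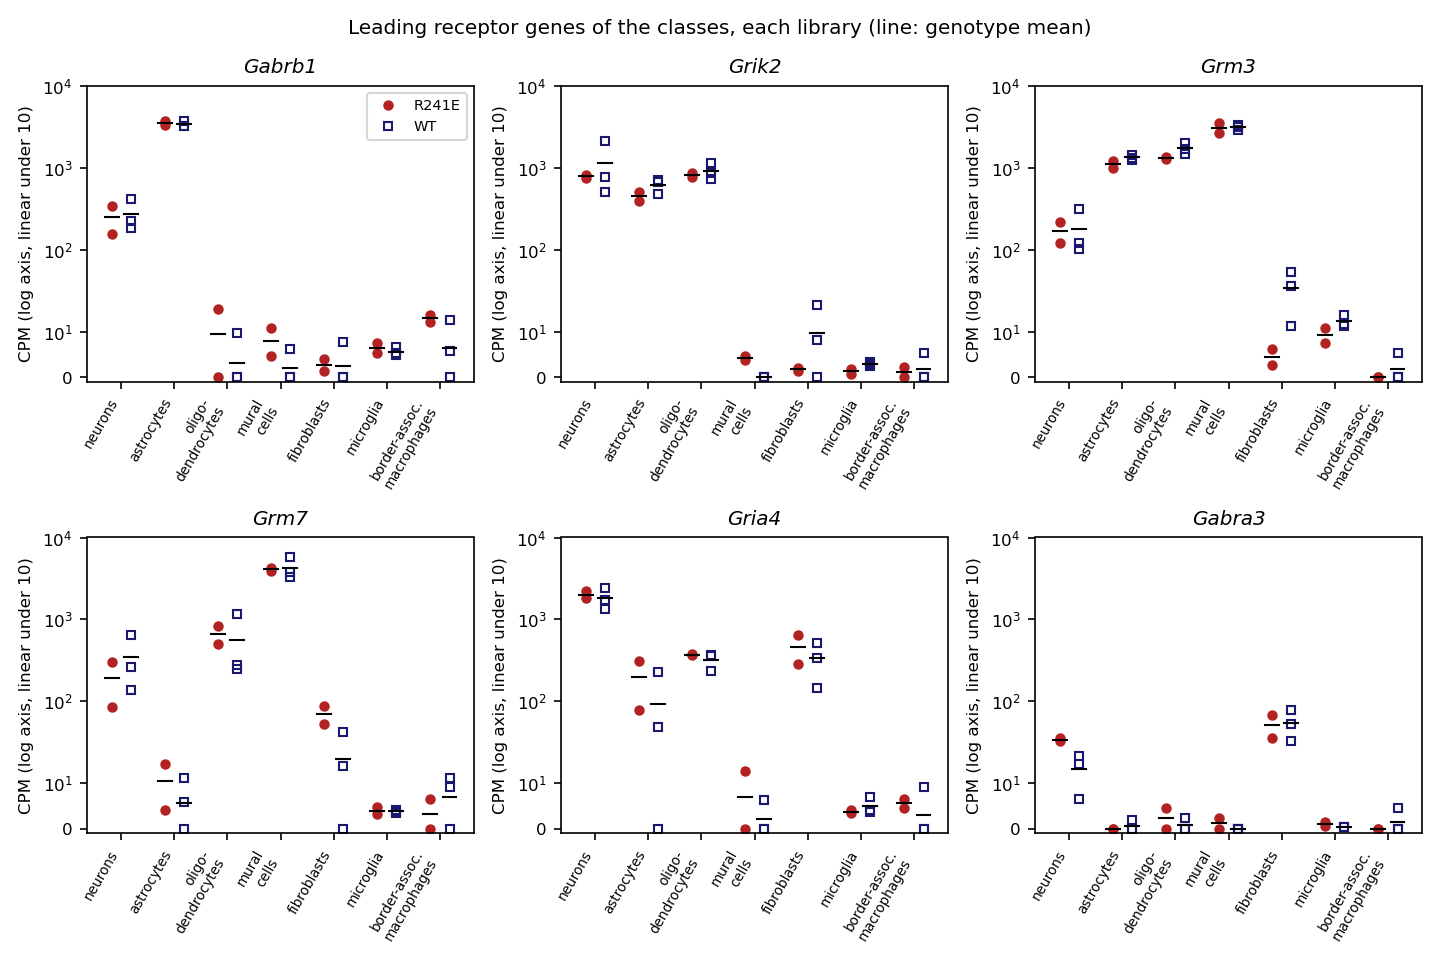
Level in CPM (log axis, linear under 10) of 6 receptor genes in the 7 tested classes, with 1 point per library (filled circles R241E, open squares WT) and a line at each genotype mean. Gabrb1 stood apart in astrocytes, Grm3 and Grm7 in mural cells, Gria4 reached neurons, fibroblasts and oligodendrocytes, and Gabra3 reached fibroblasts and neurons.

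Classes with too few nuclei for a test are given pooled over libraries. In 190 tanycytes, of which 134 came from R241E replicate 1, Gabrg3 read 439 CPM, Grin3a 334 CPM, Grik3 237 CPM and Grik2 768 CPM. The 53 pituitary nuclei read Grin3a at 369 CPM and Grik3 at 284 CPM. In 193 lymphocytes, Gabbr1 read 103 CPM.

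Genes of transmitter transport, synthesis and anchoring were also read by class. Of the 48 pathway genes 32 were tested, and 25 were called higher in neurons, 20 in astrocytes, 10 in fibroblasts, 8 in oligodendrocytes, 5 in mural cells, 3 in microglia and 2 in border-associated macrophages; 3, 5, 8, 8, 10, 18 and 15 were called lower in these classes. Of all genes, 29.3%, 28.1%, 23.0%, 25.0%, 18.4%, 34.8% and 22.0% were called higher there and 19.1%, 19.4%, 16.5%, 24.6%, 18.2%, 24.4% and 27.0% lower, so the share called higher was at the background in oligodendrocytes and below it in mural cells, microglia and border-associated macrophages. In astrocytes the leading genes were Slc6a11 (GABA uptake, 271 to 1067 CPM), Slc1a2 (glutamate uptake, 2179 to 4237 CPM) and Shisa9 (an AMPA auxiliary protein, 91.7 to 306 CPM). Fibroblasts and mural cells shared the GABA and betaine transporters Slc6a13 and Slc6a12: Slc6a13 read 310 to 669 CPM in fibroblasts and 143 to 209 CPM in mural cells. Oligodendrocytes were led by Kctd16, a GABA-B auxiliary subunit (60.6 to 216 CPM), and Cacng7, an AMPA auxiliary protein. Microglia and border-associated macrophages had Kctd12, another GABA-B auxiliary subunit, at 285 to 343 CPM and 140 to 175 CPM. Microglia also called Glul, glutamine synthetase (115 to 201 CPM). Neurons were led by Neto1, a kainate and NMDA auxiliary protein, Slc17a6, a vesicular glutamate transporter, and Kctd8, a GABA-B auxiliary subunit.

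The neurons had escaped a NeuN-negative sort and are no sample of all neurons. They formed 6 clusters. Clusters 8, 17, 18 and 22 (464 nuclei) carried GABAergic markers. Cluster 19 held 3 markers of glutamatergic neurons, but its mean log2 fold was lower for that list (1.58) than for the GABAergic list (1.97), so it was given neither name. It had 10 or more nuclei in 1 library only, and the comparison planned between the 2 kinds, which needed 3 such libraries, could not be made. Cluster 15, with 42 to 52 nuclei in each library, held Slc17a6 at 122 to 212 CPM, Reln at 6717 to 10541 CPM and Trp73 at 604 to 829 CPM, genes known from Cajal-Retzius cells, and at most 11.1 CPM of Rbfox3, the NeuN gene. Cluster 19 (43 nuclei) held Slc17a7 and, alone of the clusters, Gabra6.

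Within neurons the subunits changed from cluster to cluster (heat map of neuron clusters). Cluster 8 read Gria3 at 829 to 2765 CPM and Gria1 at 0 to 4.85 CPM. Cluster 18 was the reverse for these AMPA genes, with Gria1 at 1419 to 4078 CPM and Gria3 at 0 to 63.4 CPM. Gabra6, known chiefly from cerebellar granule cells, read 523 and 391 CPM in R241E and 394, 431 and 444 CPM in WT in cluster 19 and had no UMI in any other neuron cluster; the labels name hippocampus for all samples. Cluster 19 also held Grik2 at 4710 to 6901 CPM and had no UMI of Gria1, Gabra2 or Grid1. Cluster 22, 18 of its 19 nuclei from WT replicate 1, read Grm7 at 5529 CPM there. Grm5 and Gabra5 lay mostly in cluster 17, with 793 and 168 UMIs.

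**Figure D3:**
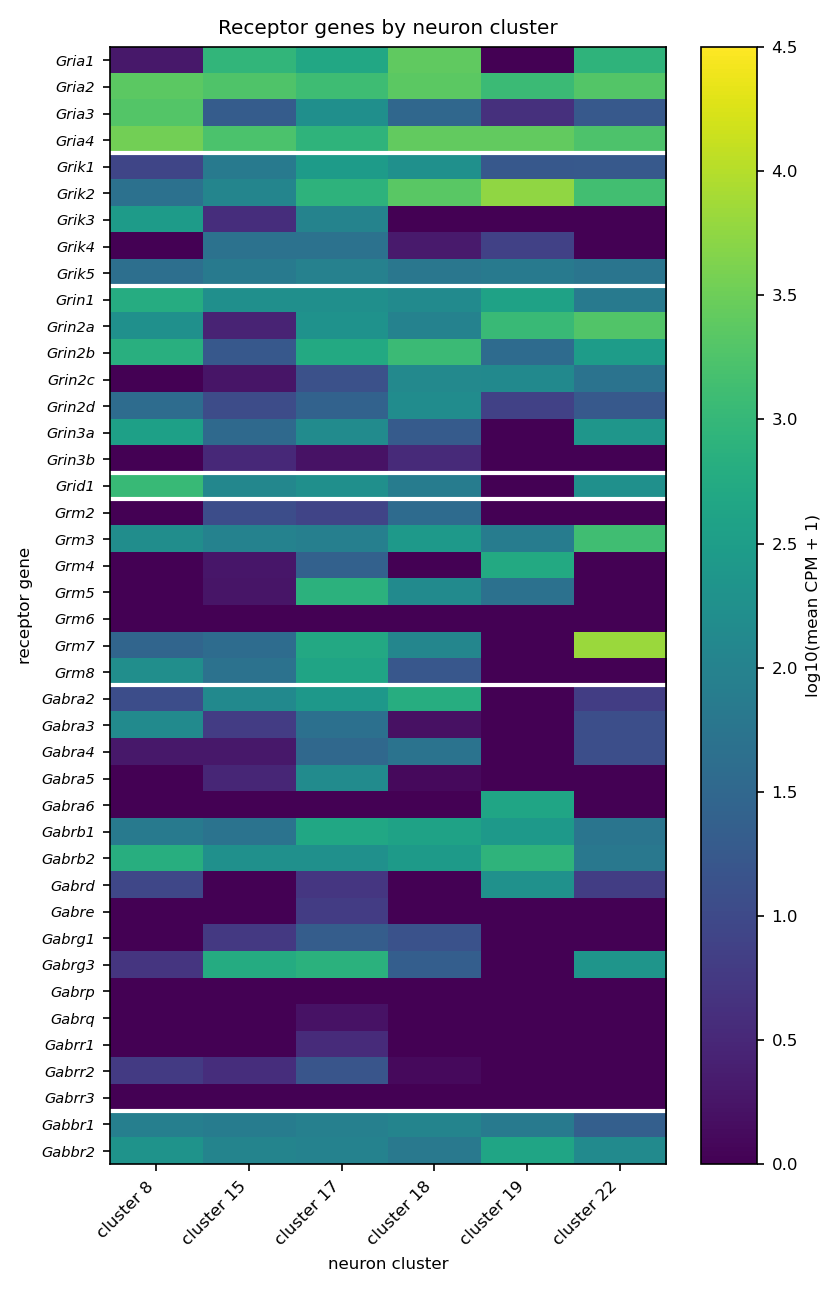
Mean level of the same 42 receptor genes (rows, grouped by family) in the 6 neuron clusters (columns; 8, 17, 18 and 22 are GABAergic), as log10 of the mean CPM plus 1 over the libraries with nuclei in that cluster (2 for cluster 22, otherwise 5). Gria3 was bright in cluster 8, Gria1 in cluster 18, Grm7 in cluster 22, and Grik2 and Gabra6 in cluster 19.

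GABAergic neurons were set against cluster 15 in a fit added after the clusters had been seen, with the library as a block (edgeR, 4212 genes). Of 27 members tested, 15 were called higher in GABAergic neurons, where 11.6% of all genes were, and none was called higher in cluster 15, where 12.1% of all genes were; 17 members had an unadjusted p under 0.05. The 3 largest fold changes were those of Grm5 (log2 fold change 8.20 ± 0.44, adjusted p = 1.31e-06), Grin2a (6.28 ± 0.43, adjusted p = 2.63e-06) and Grin2b (5.33 ± 0.42, adjusted p = 5.04e-06). Grm5 had 1 UMI in the whole of cluster 15 and Grin2a had 2, so these fold changes rest on few counts there. Clusters 8, 17 and 18 contributed unequally by library, and leaving out each library in turn gave 10 to 15 calls.

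Between genotypes, 2 of the tests on receptor genes passed: Grm8 was higher in R241E astrocytes and Gabbr1 was lower in R241E microglia (edgeR, genotype as the only term, 1 fit per class). In astrocytes 23 members were tested and 1 was called, where 0.43% of 7903 genes were. In microglia 18 were tested and 1 was called, where 9.29% of 12728 genes were. In neurons none of 35 was called (0.0113% of all genes), with 7 at an unadjusted p under 0.05 and 2 called by DESeq2. Of all genes in neurons, DESeq2 called 92 of 8872. In oligodendrocytes none of 11 was called (0.285%), with 1 at an unadjusted p under 0.05. None of 6 was called in fibroblasts (0.0172%), with 1 at an unadjusted p under 0.05, none of 3 in mural cells (0.0%) and none of 1 in border-associated macrophages (0.542%), with none at an unadjusted p under 0.05 in either; DESeq2 called none in these 4 classes. The median log2 fold change of the tested members was 0.08 in astrocytes, 0.08 in neurons, 0.14 in oligodendrocytes and 0.03 in microglia, and that of all genes was -0.0073, -0.0091, -0.0028 and -0.0051 in the same classes.

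**Figure D4:**
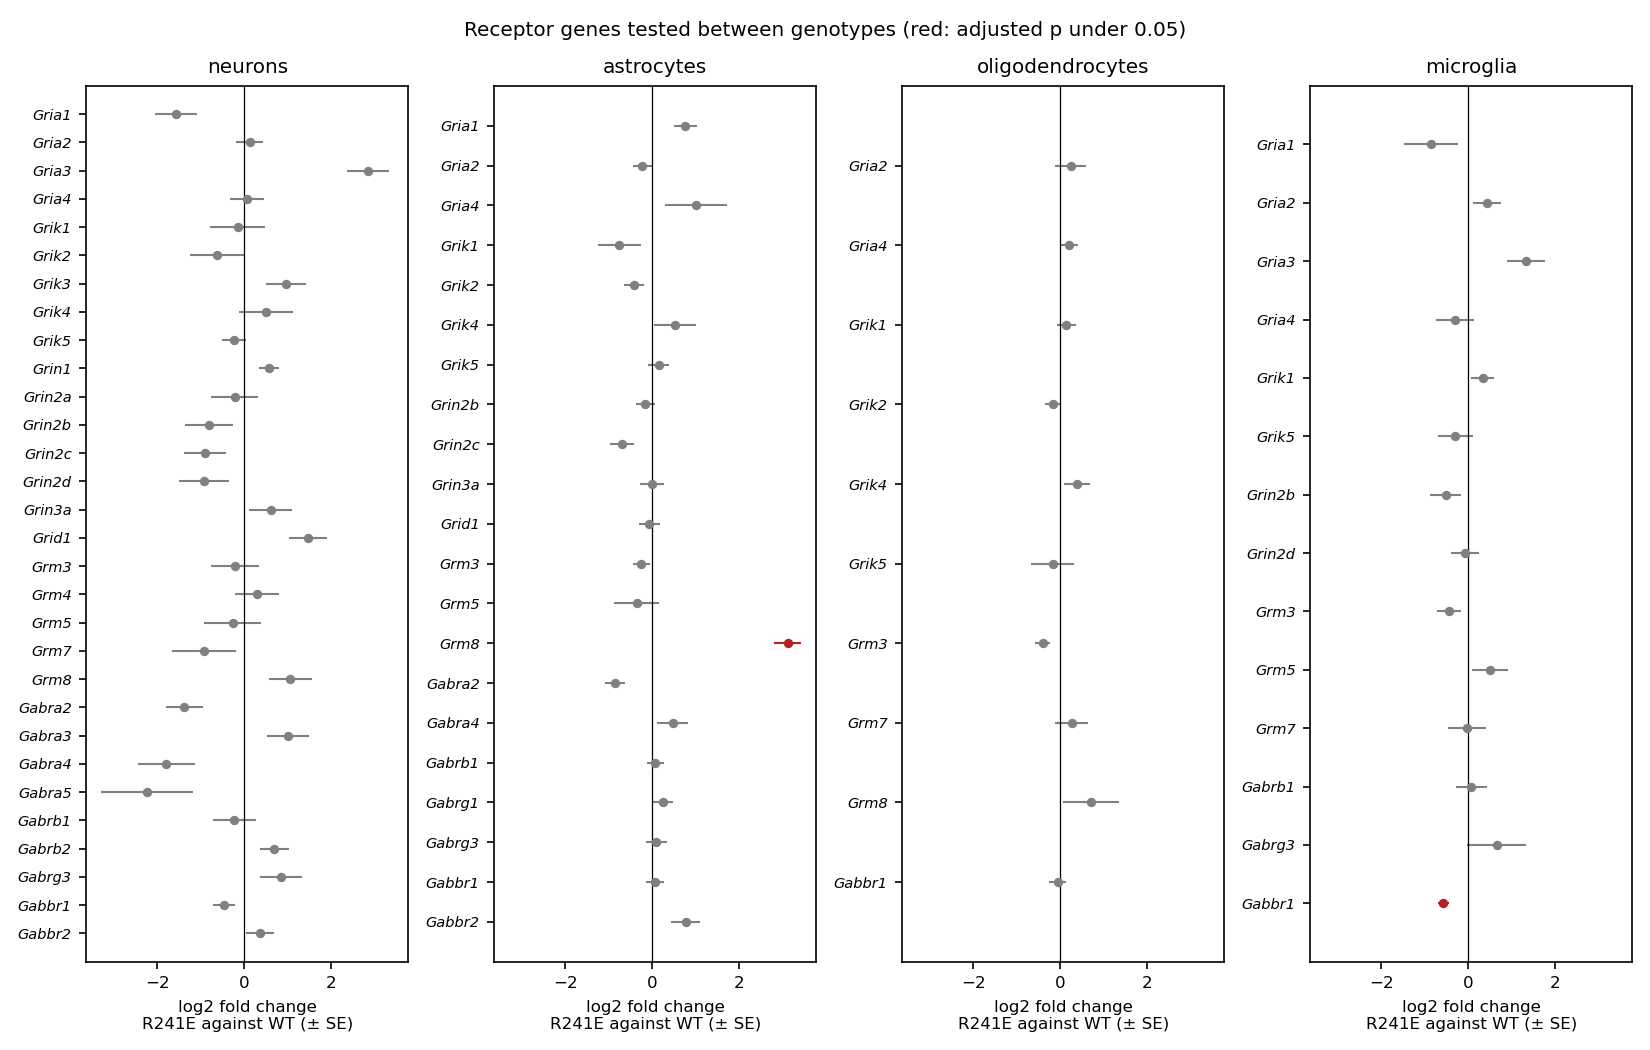
Log2 fold change of R241E against WT with its SE for those of the same 42 receptor genes that were tested in neurons, astrocytes, oligodendrocytes and microglia, with genes called at an adjusted p under 0.05 in red. Grm8 in astrocytes (3.14) and Gabbr1 in microglia (-0.57) were called, while Gria3 in neurons had a large estimate (2.86) and was not.

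Grm8, a presynaptic receptor coupled to Gi proteins, read 131 and 119 CPM in R241E astrocytes and 12.2, 19.1 and 13.6 CPM in WT astrocytes. Both R241E libraries lay far above all 3 WT libraries. The log2 fold change was 3.14 ± 0.31 (SE; 8.80-fold, adjusted p = 0.00145), and it stayed called with each library left out (3.02 to 3.30). A UMI of Grm8 was seen in 20.3% and 12.6% of R241E astrocyte nuclei (36 of 177 and 16 of 127) and in 4.69%, 3.39% and 2.08% of WT nuclei (3 of 64, 2 of 59 and 3 of 144). Microglia, where the gene was below the filter on low counts, had a UMI in 0.382% to 1.24% of nuclei. Their median depths were 2061 to 3056 UMIs, against 3189 to 5219 UMIs in astrocytes. With each nucleus thinned to 1000 UMIs the shares were 7.91% (95% exact interval 4.39 to 12.9) and 7.87% (3.84 to 14.0) in R241E, while each WT share rested on 1 nucleus. The thinned fit gave a log2 fold change of 2.34 and did not call the gene (adjusted p = 0.105).

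Astrocytes fell into 2 clusters whose numbers moved with the genotype. Cluster 7 held 172 and 82 nuclei of the R241E libraries and 40, 17 and 26 of the WT libraries, and cluster 21 held 5 and 45 against 24, 42 and 118. Grm8 had 121 and 44 UMIs in R241E and 4, 0 and 0 in WT within cluster 7, and 0 and 13 against 0, 5 and 7 within cluster 21. In cluster 7 alone, a fit chosen after seeing the data, the log2 fold change was 3.65 (adjusted p = 0.000768), so the difference was as large within that cluster. Lhx2, a transcription factor of the forebrain chosen after its values were seen, moved with these clusters. It read 4.34 and 60.3 CPM in R241E astrocytes and 67.1, 87.9 and 108 CPM in WT. Lhx2 lay mostly in cluster 21, where it read 125 to 162 CPM against 0 to 18.9 CPM in cluster 7. Whether nuclei of different brain regions had a part in the difference of Grm8 was not tested. The summed neuron marker list, 161 and 316 CPM in R241E and 219.6, 290 and 513 CPM in WT, did not separate the genotypes. Of the 8 listed neuronal transcripts, 2 were lower in R241E astrocytes without overlap, among them Nrgn (22.8 and 6.24 CPM against 51.9, 42.0 and 40.7 CPM). Of the 23 receptor genes tested in astrocytes, 5 did not overlap either. The share over all genes was not counted, so these counts do not show a shift of neuronal RNA. With nuclei of 3 or more neuron marker UMIs left out, the log2 fold change of Grm8 was 4.03 (edgeR, adjusted p = 0.000875). Leaving such nuclei out does not remove RNA free in the suspension. Neurons, which had the highest mean of Grm8, also read higher in R241E without overlap. The part of free neuronal RNA in the difference of Grm8 was not tested.

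Other astrocyte members differed between these clusters. Gria1 read 1249 to 2204 CPM in cluster 7 and 136 to 330 CPM in cluster 21, and Gabbr2 463 to 675 CPM and 0 to 116 CPM. Gria4 had 459 of its 462 astrocyte UMIs in cluster 7. Gabrb1, in contrast, read 2973 to 3600 CPM and 3073 to 4054 CPM. In the whole class, Gabbr2 read 493 and 376 CPM in R241E and 415, 218 and 155 CPM in WT and was not called; within cluster 7 its R241E values, 509 and 522 CPM, lay among the WT values.

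Elsewhere Grm8 was not called. Neurons read 247 and 257 CPM in R241E and 148, 149 and 36.8 CPM in WT (log2 fold change 1.07 ± 0.50, adjusted p = 0.617), without overlap. Oligodendrocytes read 26.4 and 44.7 CPM against 0, 10.5 and 43.7 CPM (0.72 ± 0.65, adjusted p = 1.00), with overlap. In fibroblasts, where the gene was below the filter, R241E libraries held 17.9 and 16.4 CPM (21 UMIs) and the 3 WT libraries none, which makes R241E at least 3.46-fold higher against a floor of 3 counts over the WT group. Microglia read 1.38 to 5.40 CPM, and mural cells and border-associated macrophages held 1 and 3 UMIs.

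A gene called in one class and not in another is not thereby shown to differ between them. The planned test set the genotype difference in astrocytes, and in oligodendrocytes, against its mean over the other classes. None of 37 members was called in either, where 0.0159% and 0.0% of 12598 genes were, and none had an unadjusted p under 0.05; no other tool was run on this contrast. The test was void for Grm8 and for the other members with no UMI in some class of a genotype, and 14 of the 37 had UMIs in all of them. Fits of astrocytes against one class at a time were therefore added. The difference of Grm8 in astrocytes exceeded that in neurons by 1.79 ± 0.50 log2 units (adjusted p = 0.343; 0.0806% of all genes called) and that in oligodendrocytes by 2.46 ± 0.69 (adjusted p = 0.229; 0.0978%), and neither was called. The contrast with microglia was called (4.15 ± 0.66, adjusted p = 5.74e-05), where 0.764% of all genes were. Grm8 was, however, low in microglia and below the filter of their own fit. Whether its UMIs there came from microglia was not tested, so this contrast does not show that 2 classes with the gene differ.

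Grm8 lies at chr6:27275121-28135146 (GRCm38.p6, minus strand), and RefSeq gives it 3 start windows. The window below is shown because it was the only one of the 39 member windows to hold the interferon-stimulated response element core (TTTC, any 2 bases, TTTC) on either strand (2.56%, against 2.98% of all windows); its match is in capitals. It covers the 250 bases before the innermost start, chr6:28126427-28126676, on the minus strand, within the gene.
Grm8: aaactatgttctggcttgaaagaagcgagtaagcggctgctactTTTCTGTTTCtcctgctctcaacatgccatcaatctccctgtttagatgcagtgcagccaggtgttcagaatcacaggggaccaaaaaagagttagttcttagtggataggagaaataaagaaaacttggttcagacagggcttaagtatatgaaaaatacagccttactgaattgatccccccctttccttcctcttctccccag
The other 2 windows, at chr6:28135147-28135396 and chr6:28134422-28134671, did not hold these letters.

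Gabbr1, at chr17:37045966-37074305 (GRCm38.p6), read 67.5 and 92.8 CPM in R241E microglia and 118, 113 and 111 CPM in WT microglia, from 1501 UMIs. The WT libraries all exceeded the 2 R241E libraries. The log2 fold change was -0.57 ± 0.13 (SE; adjusted p = 0.0122). It fell short without R241E replicate 1 (-0.33, adjusted p = 0.350), without WT replicate 2 (adjusted p = 0.0509) and with thinned nuclei (adjusted p = 0.0529), and remained called without cluster 1 (-0.58, adjusted p = 0.0254). Neuronal transcripts were mixed: of 8 listed, 4 were lower in R241E microglia without overlap. Among them were Nrgn (15.1 and 13.8 CPM against 39.7, 57.0 and 54.3 CPM) and Rbfox3 (2.83 and 3.46 CPM against 7.69, 6.23 and 7.79 CPM). The others overlapped, and Snap25 (mean 32.8 CPM in R241E, 30.6 in WT), Gad1 (3.55 and 1.51) and Gad2 (4.18 and 2.58) had higher R241E means. Of the 18 receptor genes tested in microglia, 8 did not overlap either. The share over all genes was not counted, so these counts do not show a shift of neuronal RNA. The summed neuron marker list, which includes Nrgn, was lower (149 and 130 CPM against 163, 167 and 168 CPM). With nuclei of 3 or more neuron marker UMIs left out, Gabbr1 was still called (-0.56, adjusted p = 0.0106). The part of free neuronal RNA was not tested. A UMI of Gabbr1 was found in 17.5% and 20.3% of R241E and in 25.4%, 26.1% and 21.3% of WT microglial nuclei.

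The microglial clusters also shifted with genotype. Cluster 2 held 39 and 66 nuclei of the R241E libraries and 832, 1191 and 892 of the WT libraries, and there Gabbr1 read 63.5 and 95.8 CPM, from 6 and 13 UMIs, against 118, 117 and 126 CPM. In cluster 1, it read 76.1 and 76.3 CPM against 119, 85.3 and 106 CPM, again without overlap. In cluster 4 the values overlapped, at 75.3 and 120 CPM in R241E and 122, 89.5 and 99.0 CPM in WT, and they overlapped in clusters 3 (57.7 and 89.2 against 115, 105 and 86.9 CPM) and 13 (45.7 and 70.3 CPM against 120.4, 0 and 247 CPM, the last 3 from 1, 0 and 3 UMIs). The part of this shift in the difference was not tested.

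No other class called Gabbr1. Border-associated macrophages, the other class described as a target of the driver, read 61.7 and 19.7 CPM in R241E and 75.7, 97.0 and 64.3 CPM in WT (log2 fold change -0.68 ± 0.42, adjusted p = 0.818). In astrocytes the values were 257 and 212 CPM against 250.1, 218 and 223 CPM (0.08 ± 0.21, adjusted p = 0.970), and in oligodendrocytes 205 and 254 CPM against 248, 207 and 245 CPM (-0.06 ± 0.21, adjusted p = 1.00). Neurons read 70.8 and 80.0 CPM against 110, 82.0 and 110 CPM (-0.47 ± 0.26, adjusted p = 0.687), fibroblasts 82.8 and 92.3 CPM against 42.6, 114 and 116 CPM (-0.15 ± 0.32, adjusted p = 0.997) and mural cells 82.1 and 55.8 CPM against 26.0, 143 and 68.7 CPM (-0.33 ± 0.42, adjusted p = 0.999). The ranges overlapped in astrocytes, oligodendrocytes, fibroblasts and mural cells. In neurons and border-associated macrophages, Gabbr1 was lower in R241E without overlap.

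**Figure D5:**
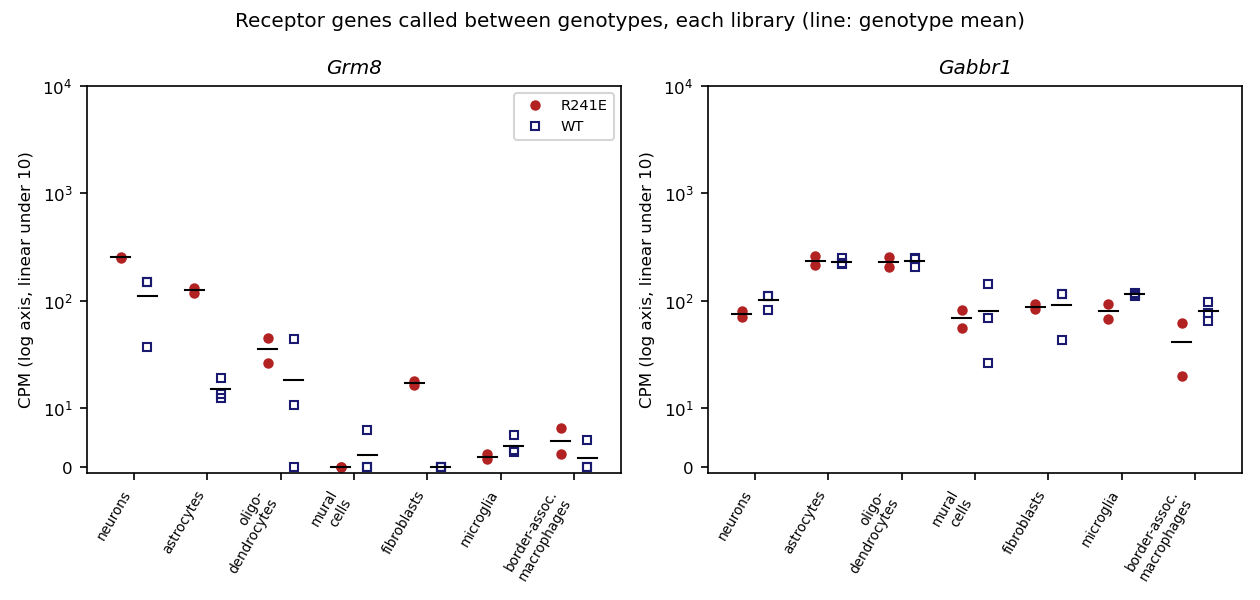
Level in CPM (log axis, linear under 10) of Grm8 and Gabbr1 in the 7 tested classes, with 1 point per library (filled circles R241E, open squares WT) and a line at each genotype mean. Grm8 separated the genotypes in astrocytes (119 and 131 against 12.2 to 19.1 CPM), and Gabbr1 separated them narrowly in microglia. Without a call, Grm8 was also higher in R241E without overlap in neurons and, untested, in fibroblasts. Gabbr1 was likewise lower without overlap in neurons and border-associated macrophages.

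In neurons the estimate of Gria3 was large, and 1 cluster high in the gene held few WT nuclei. Gria3 read 339 and 1095 CPM in R241E and 78.5, 129 and 82.0 CPM in WT (log2 fold change 2.86 ± 0.48, adjusted p = 0.116), without overlap. DESeq2 called it (adjusted p = 9.80e-05). Cluster 8, the cluster high in this gene, held 13 and 46 nuclei of the R241E libraries and 1, 3 and 1 of the WT libraries. Inside it Gria3 read 2249 and 2765 CPM in R241E and 829, 2616 and 1534 CPM in WT, with overlap. With so few WT nuclei, these values cannot show whether the genotypes differed within the cluster. The part of cluster 8 in the difference was not tested.

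Of the pathway genes tested (20 in astrocytes, 27 in microglia, 40 in neurons, 10 in oligodendrocytes, 14 in fibroblasts, 7 in mural cells and 6 in border-associated macrophages), 2 were called between genotypes, both higher in R241E microglia, where 9.29% of all genes were called; an unadjusted p under 0.05 was reached by 5 in astrocytes, 7 in microglia, 11 in neurons and 4 in fibroblasts, and by none in oligodendrocytes, mural cells and border-associated macrophages. Slc6a11 read 6.91 and 3.46 CPM in R241E and 0.405, 2.08 and 1.20 CPM in WT (log2 fold change 2.01 ± 0.55, adjusted p = 0.0323), and Slc17a6 5.97 and 4.84 CPM against 0.810, 0.922 and 1.50 CPM (2.30 ± 0.51, adjusted p = 0.00822). Both are marker-like genes of other cells and low here: Slc6a11 read 1067 and 630 CPM in R241E astrocytes and 631, 397 and 271 CPM in WT astrocytes, and Slc17a6 29.0 to 110 CPM in neurons. In microglia the summed astrocyte list (7 of 8 markers detected in each library) read 35.5 and 35.3 CPM in R241E and 46.2, 32.1 and 38.7 CPM in WT, and the summed neuron list (8 of 8 detected) 149 and 130 CPM against 163, 167 and 168 CPM. Neither list separated the genotypes upwards in R241E. The part of free RNA from astrocytes or neurons in these calls was not tested. Both calls were lost with DESeq2 (adjusted p = 0.156 for Slc6a11 and 0.0619 for Slc17a6) and without R241E replicate 1 (adjusted p = 0.587 and 0.253), and Slc6a11 also without R241E replicate 2 (adjusted p = 0.0515) or WT replicate 1 (adjusted p = 0.0863).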

How the data were processed

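Nuclei of 5 mouse brain libraries (10x Genomics 3′ chemistry) were counted by the authors with Cell Ranger 7.0.0 on mm10, and the deposited values are raw UMI counts per gene and nucleus. Whether intronic reads were counted is not given in the sources used here. Limits on nuclei followed the study (200 to 4500 genes, a mitochondrial share below 5%, less than 10000 UMIs). Clustering used scanpy 1.11.5 (3000 variable genes without the receptor and pathway genes, 30 components, 20 neighbours, Leiden resolution 1). Scrublet called 43 nuclei (0.452%) and was not relied on. Counts were summed per library and class and tested with edgeR 4.0.16 (TMM, filterByExpr, quasi-likelihood, Benjamini-Hochberg over all genes). Library totals were 4183709 to 10130667 UMIs, and exact 95% intervals cover counting error only. p-values measure the spread between single mice. Simulated 4-fold changes of 200 genes were recovered for 83% in astrocytes (7728 genes, 8 false calls) and 92% in microglia (12619 genes, 10 false calls). The simulation gave every gene the same spread between libraries, not the spread of these data, so it does not give the power of these fits. The members, lists and tests were chosen with earlier results of these data known. Values in every library are given for members called between genotypes, for the up to 4 members with the largest fold in each class, and for others chosen after their values were seen; 5 members and some other genes are counted with the rest but not reported here by name. Alternatives were DESeq2 size factors and its Wald test, no filter on low counts, each library left out, WT libraries only, the replicate number as a block, thinning to 1000 UMIs, resolution 2, and leaving out 156 nuclei with high doublet scores or 782 nuclei with 3 or more neuron marker UMIs. Coordinates and promoter windows are from RefSeq (GRCm38.p6).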

Additional observations from a re-analysis of the deposited data

Results flagged for a closer look

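The genotype difference of Grm8 in astrocytes exceeded that in microglia by 4.15 on the log2 scale (edgeR, adjusted p = 5.74e-05), in a test of the difference itself that was added after the data had been seen. Levels were 131 and 119 CPM in R241E and 12.2, 19.1 and 13.6 CPM in WT astrocytes, and 1.38 to 5.40 CPM in microglia. In microglia the gene was below the filter of their own fit, and whether its UMIs came from microglia was not tested. The contrast therefore does not show that 2 classes with the gene differ. Against neurons (1.79, adjusted p = 0.343) and oligodendrocytes (2.46, adjusted p = 0.229) the difference was not called.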

How the results depend on the processing

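Receptor genes called between genotypes numbered 1 in microglia, 0 in neurons, 0 in oligodendrocytes, 1 in astrocytes and 0 in fibroblasts. With no filter on low counts they numbered 2, 9, 0, 4 and 2 in these classes. Of all genes, 1503 of 22564, 528 of 21534, 47 of 18454, 266 of 19649 and 92 of 18957 were called there without the filter, in the same order. Leaving out each library in turn gave 0 to 1 in microglia (0 without R241E replicate 1 or WT replicate 2), 0 to 1 in oligodendrocytes (Grm7 without WT replicate 1), 1 to 2 in astrocytes (also Gabbr2 without WT replicate 1) and 0 to 3 in fibroblasts (Gria3, Gria4 and Grm7 without R241E replicate 2). Of all genes, 25 of 5577 in oligodendrocytes and 114 of 7644 in astrocytes were called without WT replicate 1. Thinned nuclei gave 0 members in microglia (710 of 10115 genes called) and 0 in astrocytes (10 of 2946). Leaving out microglial cluster 1 gave 3 members in microglia, also Gria3 (1411 of 12022 genes called). DESeq2 gave 2 members in neurons (92 of 8872 genes called). Members called higher in fibroblasts fell from 4 to 2 with WT libraries only and to 2 with thinned nuclei. The genotypes share only replicate numbers 1 and 2, no label says that a number marks a litter or batch, and deviations of same-numbered libraries correlated at -0.129 to 0.232, so the numbers were not taken as pairs. The replicate block gave 1 call in neurons (Gria3), 1 in oligodendrocytes (Grm8, 2.85, adjusted p = 0.0211) and 3 in astrocytes (also Gria4 and Gabra2). Of all genes it called 103 of 8872 in neurons, 72 of 5613 in oligodendrocytes and 185 of 7903 in astrocytes. The block turned Gabbr1 in fibroblasts to 0.11. Gabbr1, not called in these classes, also changed sign with 1 library left out: it ranged from -0.34 to 0.016 in fibroblasts (above 0 without WT replicate 3), -0.17 to 0.10 in oligodendrocytes (above 0 without R241E replicate 1), -0.67 to 0.39 in mural cells (above 0 without WT replicate 2) and -0.10 to 0.22 in astrocytes (below 0 without R241E replicate 1). In astrocyte cluster 7 alone it was -0.067. Grm8 in neurons was called only without the filter (1.04, adjusted p = 0.0305). The cause was not tested. Of the other values, 333 of single genes kept their direction and side of the threshold. Another 169, which are counts of called members, equalled the count of the fit reported or lay within a set ratio of it. The same members need not make up such counts. Genes of all kinds called between genotypes ranged over the alternatives from 506 to 2027 in microglia (1182 in the fit reported), 0 to 528 in neurons (1), 2 to 72 in oligodendrocytes (16), 0 to 3 in mural cells (0), 1 to 266 in astrocytes (34), 0 to 100 in fibroblasts (1) and 1 to 67 in border-associated macrophages (24). With 2 R241E mice and as few as 30 fibroblast and 37 mural nuclei in a library, low members could not be tested between genotypes in these classes.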
